A study of Homo sapiens with 6 samples.

Results

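The 10 genes described here encode signals of inflammation: the CXC chemokine genes CXCL1, CXCL2, CXCL3, CXCL5, CXCL8 and CXCL16, the CC chemokine genes CCL2 and CCL20, and the cytokine genes IL6 and LIF. They were chosen by name, as the rows of the deposited table with these symbols, and all 10 were found among its 61806 genes. Expression had been measured by RNA sequencing in 6 libraries labelled HepG2, 3 with LAPTM4B knocked down and 3 controls, titled shLAP and NC, with the genotypes LAPTM4B knockdown and WT. HepG2 is an established human hepatoma line, and the series' design text says that the cells of both groups were CD133+. LAPTM4B encodes a protein of lysosomal membranes, and the title of the series places the knockdown within a question about LAPTM4B, the co-activator YAP and stemness of liver cancer. The protocol names the RNA source HPC, which it does not spell out, and beyond the title shLAP the labels do not say how the knockdown was made, whether cells were single clones or whether each library had its own culture, so the p-values speak only of the spread among these libraries, which may be technical.

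Chemokines are small secreted proteins that attract leukocytes along a gradient by binding receptors coupled to G proteins. CXCL1, CXCL2, CXCL3, CXCL5 and CXCL8 carry the ELR residues ahead of their paired cysteines, bind CXCR2 (CXCL8 also CXCR1) and draw neutrophils, whereas CCL2 acts on CCR2 of monocytes and CCL20 on CCR6 of lymphocytes and dendritic cells. IL6 and LIF belong to a family of cytokines that signal through the shared receptor chain gp130, encoded by IL6ST, to JAK kinases and STAT3. In liver, IL6 is known as the main inducer of the acute-phase proteins, and several of these genes are textbook targets of NF-kB.

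Start regions of 7 of the 10 genes were read from the RefSeq promoter table for build GRCh38.p14, which gives 250 bases before and 50 after the annotated start. The entries cover CXCL1, CXCL2, CXCL3, CXCL5, CXCL8, CCL20 and IL6. For CCL20 and IL6 the region lies wholly inside the gene as counted here. These genes begin at base 227805739 of chromosome 2 and base 22725884 of chromosome 7. The regions of CXCL2 and CXCL8 are shown whole because these genes at opposite ends of a chemokine cluster on chromosome 4 moved in opposite directions, and 69-base windows of the others are shown for comparison. Capitals mark matches, on either strand, to the letters GGNNTTTCC for NF-kB, TGANTCA for AP-1, TTGCNNAA for C/EBP and TATAAA for a TATA box.
CXCL2, chr4:74099146-74099445, minus strand: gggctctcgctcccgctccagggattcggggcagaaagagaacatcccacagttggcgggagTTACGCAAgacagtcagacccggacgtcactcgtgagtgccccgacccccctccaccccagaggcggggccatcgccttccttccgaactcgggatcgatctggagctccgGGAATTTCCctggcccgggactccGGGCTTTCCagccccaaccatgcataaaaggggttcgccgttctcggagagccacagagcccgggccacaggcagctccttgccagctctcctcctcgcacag
CXCL8, chr4:73740319-73740618, plus strand: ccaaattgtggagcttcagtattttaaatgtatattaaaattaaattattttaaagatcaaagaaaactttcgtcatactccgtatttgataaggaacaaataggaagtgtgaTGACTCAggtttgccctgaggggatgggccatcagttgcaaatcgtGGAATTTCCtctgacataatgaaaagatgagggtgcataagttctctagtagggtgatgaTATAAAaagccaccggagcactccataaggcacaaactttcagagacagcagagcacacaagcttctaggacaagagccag
CXCL1, chr4:73869285-73869353, plus strand: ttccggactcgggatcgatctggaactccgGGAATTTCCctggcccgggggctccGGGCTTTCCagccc
CXCL3, chr4:74038729-74038797, minus strand: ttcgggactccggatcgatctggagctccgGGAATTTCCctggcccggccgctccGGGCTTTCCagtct
CXCL5, chr4:73998729-73998797, minus strand: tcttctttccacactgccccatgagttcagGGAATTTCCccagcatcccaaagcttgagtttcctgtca
IL6, chr7:22727098-22727166, plus strand: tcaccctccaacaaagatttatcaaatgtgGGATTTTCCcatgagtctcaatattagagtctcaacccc
CCL20, chr2:227813733-227813801, plus strand: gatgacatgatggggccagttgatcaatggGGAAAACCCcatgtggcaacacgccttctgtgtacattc

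The NF-kB letters were in all 7 regions, against 6.26% of 35116 RefSeq regions of the same length. The letters were chosen with these sequences known and some of the regions are alike, so this describes them and is not a test. The run GGAATTTCC stood in the regions of CXCL1, CXCL2, CXCL3, CXCL5 and CXCL8, its first base between 77 and 91 bases before the start. CXCL1, CXCL2 and CXCL3 also held GGGCTTTCC, beginning 53 bases before the start in each. The IL6 region held GGATTTTCC from 72 bases before the start, and the CCL20 region held a match on the other strand from 79 bases before it. The AP-1 letters were in the CXCL8 region only, with TGACTCA beginning 137 bases before the start, against 7.71% of all regions. The C/EBP letters were in the regions of CXCL2 and IL6 (10.5% of all regions) and TATAAA in those of CXCL8 and CCL20 (11.5%). None of the 4 motifs overlapped another within a region. These are matches of letters, not sites shown to be bound, and the same NF-kB letters were present in genes that rose, fell and gave no reads. Over the whole 300 bases the CXCL1 region was 82.5% identical to that of CXCL3 and 72.1% to that of CXCL2, while the CXCL8 region was 43.0% identical to that of CXCL2, in global alignments with gaps counted.

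The 6 libraries held 15204269 to 19987318 counts each. In single libraries 3 counts, the most that a count of 0 allows, amount to 0.155 to 0.194 CPM, CPM being counts scaled to a common library total with TMM factors (a limit for counting error only). LAPTM4B was at 227, 237 and 232 CPM in the knockdown libraries, against 327, 325 and 350 CPM in the control libraries, so the groups did not overlap. Its level fell by 30.6% (log2 change -0.53, SE 0.04; edgeR adjusted p = 3.25e-12). The labelled cell type was checked against 8 hepatocyte genes: the albumin gene ALB and the apolipoprotein genes APOA1 and APOB had 0 counts in all 6 libraries, and AFP, TTR and TF had at most 4. SERPINA1 had 0 to 5 counts in knockdown libraries and 35 to 49 in control libraries, a 12.5-fold fall (edgeR adjusted p = 4.93e-07), and HNF4A, at 3.63 ± 0.317 CPM in knockdown cells and 4.48 ± 0.772 CPM in control cells, did not pass. HepG2 is known to make albumin, apolipoproteins, alpha-fetoprotein and transferrin, so these levels go against the label, and the cells are called here by their labels only. PROM1, the gene of CD133, had 6 to 12 counts in knockdown libraries and 1 to 3 in control libraries, so its transcript gave little sign of the labelled selection. These counts were too few for the main test. Fitted without a count filter, PROM1 had a log2 change of 2.48 (edgeR adjusted p = 0.00906). Across the 16354 genes that could be tested, 28.0% had higher and 27.9% had lower levels in knockdown cells at an adjusted p under 0.05 (55.9% in all; 50.1% of these calls were higher, against 60.7% of the calls made by limma on FPKM), and the median log2 change was 0.01.

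The 10 genes split 3 ways. CXCL2, CXCL3 and CCL2 were higher in the knockdown, CXCL8, IL6 and CXCL16 were lower, and LIF did not pass. CCL20 had too few reads to be tested, and CXCL1 and CXCL5 had no read in any library. The count filter was passed by 7 of the 10 genes, of which 3 were called higher and 3 lower, and a share of 55.9% was called among all genes tested. In 6 of the 7 the groups did not overlap, which was so for 60.4% of all genes tested. The median log2 change of the 7 was -0.08.

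**Figure D1:**
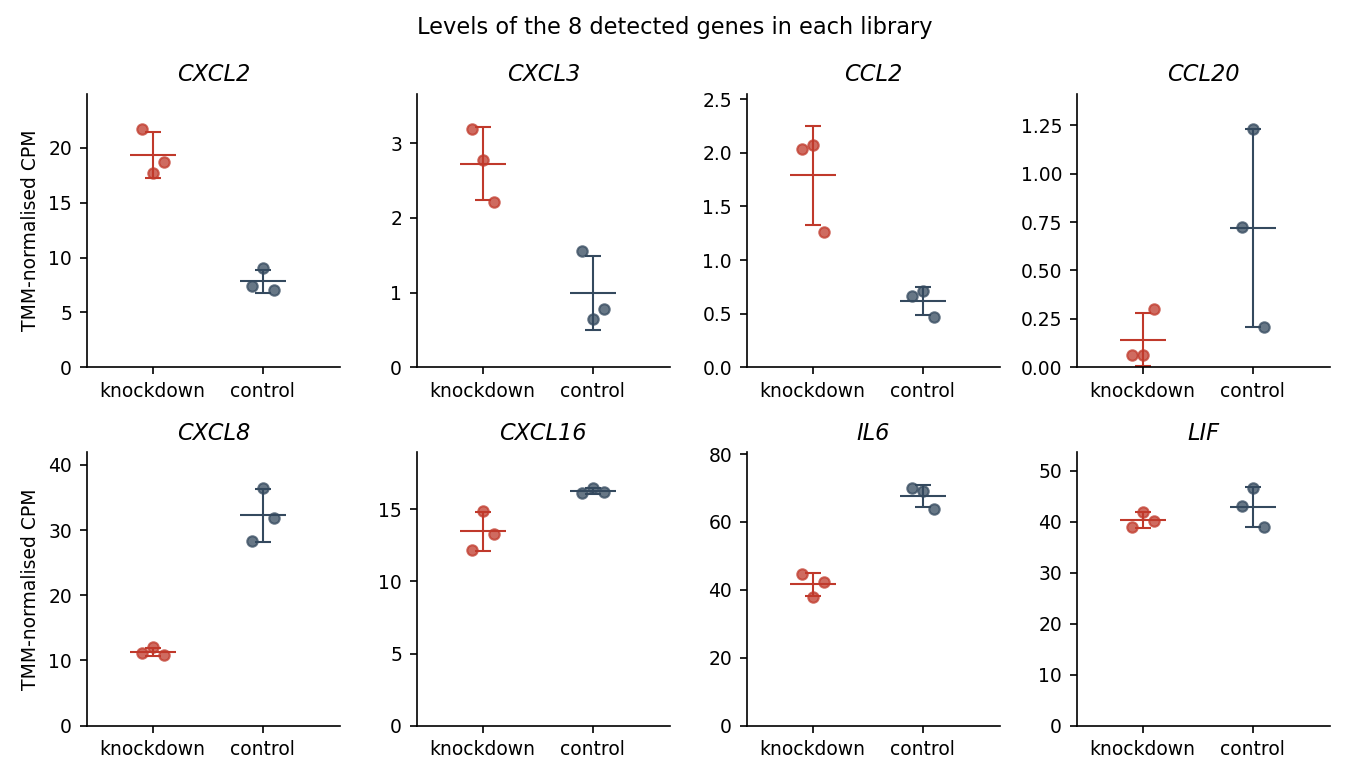
Levels of the 8 genes with reads, in TMM-normalised CPM (vertical axes, linear from 0), with 1 point per library, knockdown left and control right, and bars for the mean and SD of 3 libraries. The groups are separate for CXCL2, CXCL3, CCL2, CXCL8, CXCL16 and IL6, and overlap for CCL20 and LIF.

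Among the ligands that draw neutrophils, CXCL8, interleukin-8 by its older name (chromosome 4, 73740519 to 73743716, hg38), was at 11.2, 12.0 and 10.8 CPM in knockdown libraries, against 28.4, 36.5 and 31.9 CPM in control libraries. Every knockdown library was below every control library, on 175 to 185 reads per knockdown library and 510 to 617 per control library. CXCL8 fell 2.84-fold (log2 change -1.51, SE 0.10; edgeR adjusted p = 4.29e-13).

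CXCL2 (chromosome 4, 74097040 to 74099196), a ligand of the same receptor, went the other way. It was at 21.7, 17.7 and 18.7 CPM in knockdown libraries, against 7.40, 9.01 and 7.03 CPM in control libraries. All 3 knockdown libraries were above all 3 control libraries. CXCL2 rose 2.49-fold (log2 change 1.32, SE 0.12; edgeR adjusted p = 2.71e-10). CXCL3 (chromosome 4, 74036589 to 74038807), its close relative, was at 3.19, 2.78 and 2.21 CPM in knockdown libraries, against 1.56, 0.648 and 0.775 CPM in control libraries. The groups did not overlap, although control replicate 1 lay well above the other control libraries, and the counts were low, at 37 to 50 per knockdown library and 10 to 28 per control library. CXCL3 rose 2.71-fold (log2 change 1.44, SE 0.32; edgeR adjusted p = 4.80e-04). CXCL2 and CXCL3 are similar enough that reads could have been shared: in the GENCODE release 29 transcripts, 8.99% of the 50-base stretches of CXCL2 also occur in CXCL3 and 3.88% in CXCL1, and 6.01% of those of CXCL3 occur in CXCL2. How the authors treated such reads is not given in the sources used here. No 50-base stretch of CXCL8 occurs in CXCL1, CXCL2, CXCL3 or CXCL5.

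The same changes can be written as ratios of counts per base of exon within a library, which need no scaling between libraries; they restate the values above and were not counted as a further test. The ratio of CXCL2 to CXCL8 was 3.60, 2.74 and 3.20 in knockdown libraries, against 0.483, 0.457 and 0.408 in control libraries. CXCL2 exceeded CXCL8 in every knockdown library and was below it in every control library. The ratio of CXCL3 to CXCL2 was 0.0926, 0.0989 and 0.0745 in knockdown libraries, against 0.133, 0.0453 and 0.0695 in control libraries, and the groups overlapped.

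CXCL1 and CXCL5, further ligands of CXCR2, had 0 counts in all 6 libraries, which allows at most 0.194 CPM in the shallowest. The 9 CXC genes in this stretch of 359 kb on chromosome 4 run in the order CXCL8, CXCL6, PF4V1, CXCL1, PF4, PPBP, CXCL5, CXCL3 and CXCL2. Reads were found at the ends only: the 6 genes between CXCL8 and CXCL3 had 0 counts in every library. These 6 include CXCL6, another neutrophil attractant, and PF4 and PPBP, which are known as products of platelets. Of the 13 annotated genes and pseudogenes of any kind between CXCL8 and CXCL3, 1 had a read, a single count over the 6 libraries.

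**Figure D2:**
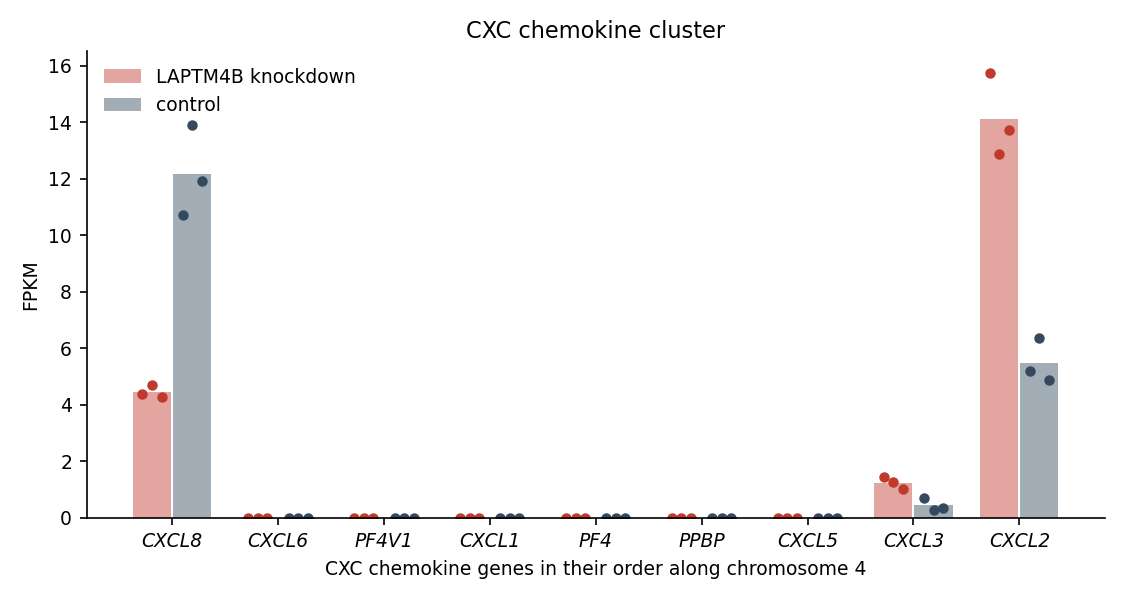
FPKM, the authors' value normalised to exon length and library total (vertical axis), of the 9 CXC genes in their order along chromosome 4, with bars for the mean of 3 libraries and points for single libraries, knockdown left and control right in each pair. CXCL8 is lower and CXCL2 and CXCL3 are higher in the knockdown, and the 6 genes between CXCL8 and CXCL3 are at 0.

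CXCL16 differs from the other chemokines described here in being made as a transmembrane protein, which also takes up oxidised lipoprotein and whose shed form attracts cells bearing CXCR6. The gene (chromosome 17, 4733533 to 4739928) was at 12.2, 14.9 and 13.3 CPM in knockdown libraries, against 16.1, 16.5 and 16.2 CPM in control libraries. The groups did not overlap, but knockdown replicate 2 lay close to the controls. The log2 change of -0.27 (SE 0.10) passed with an edgeR adjusted p of 0.0248, and with DESeq2 it did not (adjusted p = 0.0534). The edgeR call was also lost without knockdown replicate 1 (adjusted p = 0.134) or knockdown replicate 3 (adjusted p = 0.0717). CXCL16 overlaps ZMYND15 and MED11, of which the higher was at 9.21 CPM on average, and the use of strand in the counting is not given. ADAM10 and ADAM17, the proteases that shed CXCL16, did not pass, at 134 ± 2.10 and 70.3 ± 0.848 CPM in knockdown cells and 140 ± 0.727 and 70.0 ± 4.57 CPM in control cells (SD, n = 3 each). The 95% intervals of their log2 changes ran from -0.14 to 0.02 and from -0.10 to 0.12.

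The CC chemokine CCL2, which draws monocytes (chromosome 17, 34255274 to 34257208), had 32, 32 and 21 counts in knockdown libraries, against 12, 11 and 9 in control libraries. In CPM these were 2.04, 2.07 and 1.26, against 0.667, 0.713 and 0.465, and the groups did not overlap. CCL2 rose 2.90-fold from these few reads (log2 change 1.54, SE 0.37; edgeR adjusted p = 8.96e-04). CCL20 (chromosome 2, 227805739 to 227817564) had 1, 1 and 5 counts in knockdown libraries, against 13, 19 and 4 in control libraries, and the groups overlapped. It did not pass the count filter and has no call. Fitted without the filter, CCL20 had a log2 change of -2.21 (edgeR adjusted p = 0.00612), and limma on log2(FPKM + 0.1) without a filter gave -1.41 (adjusted p = 0.172). It was also without a call when knockdown replicate 1 or 2 was left out (edgeR adjusted p = 0.0546 and 0.0518).

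**Figure D3:**
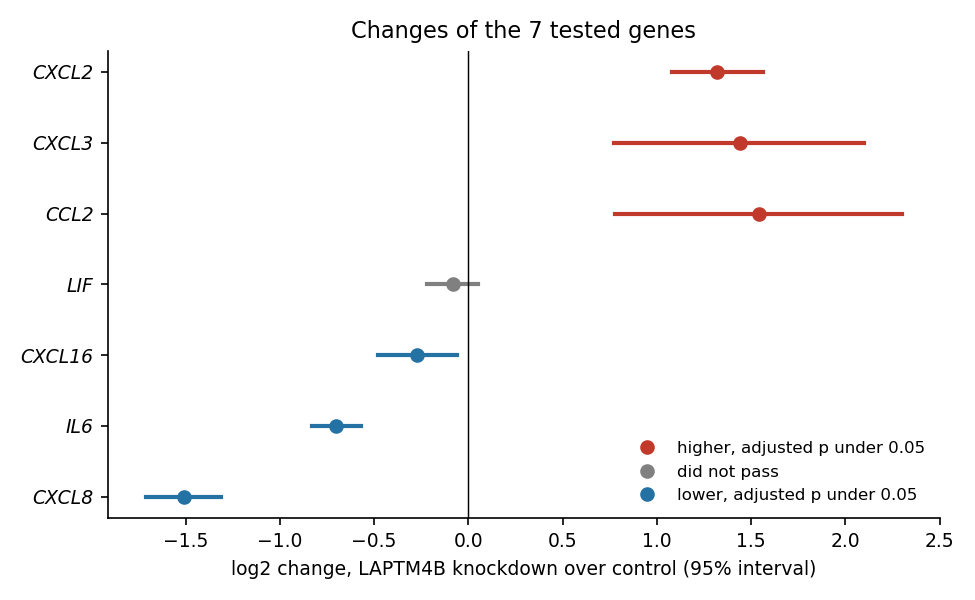
Log2 change, knockdown over control (horizontal axis), of the 7 tested genes, with points for the edgeR estimate and lines for its 95% interval. CXCL2, CXCL3 and CCL2 lie between 1.32 and 1.54 and CXCL8 at -1.51, while the interval of LIF, from -0.22 to 0.05, includes 0.

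IL6, the cytokine of the acute-phase response (chromosome 7, 22725884 to 22732002), was the most abundant of the 10 genes in control cells. It was at 44.6, 37.8 and 42.4 CPM in knockdown libraries, against 70.1, 69.0 and 63.9 CPM in control libraries. Every knockdown library was below every control library, on 585 reads or more in each. IL6 fell 1.62-fold (log2 change -0.70, SE 0.06; edgeR adjusted p = 2.11e-10). LIF, leukaemia inhibitory factor, which is used to maintain mouse embryonic stem cells (chromosome 22, 30240453 to 30246759), was at 39.0, 42.0 and 40.1 CPM in knockdown libraries, against 43.2, 46.7 and 38.9 CPM in control libraries. The groups overlapped, with control replicate 3 below all knockdown libraries. Its log2 change was -0.08 (SE 0.07; 95% interval -0.22 to 0.05; edgeR adjusted p = 0.300), an interval that leaves room for a fall of up to 0.22 on the log2 scale. Within libraries, the ratio of IL6 to LIF counts per base was 1.02, 0.806 and 0.947 in knockdown cells and 1.45, 1.32 and 1.47 in control cells.

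Levels were compared between genes only as FPKM, which accounts for gene length. In knockdown cells the order was CXCL2 (14.1 ± 1.46 FPKM), LIF (10.6 ± 0.405), IL6 (9.81 ± 0.821), CXCL16 (4.92 ± 0.496), CXCL8 (4.46 ± 0.215), CXCL3 (1.25 ± 0.221), CCL2 (0.943 ± 0.237) and CCL20 (0.0900 ± 0.0866). In control cells it was IL6 (15.3 ± 0.855 FPKM), CXCL8 (12.2 ± 1.60), LIF (10.8 ± 1.07), CXCL16 (5.69 ± 0.122), CXCL2 (5.47 ± 0.781), CCL20 (0.443 ± 0.315), CXCL3 (0.440 ± 0.218) and CCL2 (0.310 ± 0.0700). In knockdown cells the single libraries of LIF and IL6, of CXCL16 and CXCL8, and of CXCL3 and CCL2 overlapped, whereas CXCL2 stood above LIF in all 3. In control cells CXCL8 overlapped LIF, CXCL16 overlapped CXCL2, and CCL20, CXCL3 and CCL2 overlapped one another, whereas IL6 stood above CXCL8 in all 3.

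Other chemokine genes were mostly silent. Of 36 others in the human family, 14 had no count in any library and 5 could be tested. Of those tested, 3 fell, 1 rose and 1 did not pass (80.0% called, against 55.9% of all genes tested). Their median log2 change was -1.01, against 0.01 over all genes tested. CCL5, which draws T cells, was at 35.7 ± 2.47 CPM in knockdown cells and 73.9 ± 3.75 CPM in control cells (log2 change -1.05; edgeR adjusted p = 3.35e-14). CXCL10 and CXCL11, the interferon-induced ligands of CXCR3, were at 12.8 ± 1.16 and 9.59 ± 0.945 CPM in knockdown cells and 25.8 ± 0.999 and 26.1 ± 1.51 CPM in control cells, falling 2.01-fold and 2.72-fold. CCL26, an eosinophil attractant, rose on 13 to 17 counts per knockdown library against 5 to 8 per control library (log2 change 1.26; edgeR adjusted p = 0.0171). The call was lost with DESeq2 (0.0572), without a count filter (0.0502), without knockdown replicate 3 (0.0667) and without control replicate 2 (0.0609). The number lower was 5 without a count filter and when any 1 knockdown library was left out. CCL22, an attractant of regulatory T cells, had 2, 0 and 0 counts in knockdown libraries, against 8, 27 and 19 in control libraries, and CCL24, an eosinophil attractant, had 1, 1 and 2, against 12, 16 and 4. Both were under the filter, and without it their edgeR adjusted p was 9.53e-08 and 0.00258.

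The receptors of the chemokine members were near the limit of detection. CXCR1 had 0 counts in all 6 libraries, CXCR2 at most 1, CCR2 at most 2 and CCR6 at most 1. CXCR6, the CXCL16 receptor, had 5 to 14 counts in knockdown libraries and 6 to 11 in control libraries and overlaps the more abundant FYCO1. Of 23 chemokine receptor genes 4 could be tested: 2 fell, 1 rose and 1 did not pass. Among all genes tested 55.9% were called, and 4 genes are too few to set against that share. CXCR4, the receptor of CXCL12, was at 33.9 ± 1.60 CPM in knockdown cells and 163 ± 6.68 CPM in control cells, a 4.82-fold fall (edgeR adjusted p = 3.80e-23). ACKR3, the atypical receptor that scavenges CXCL12, was at 16.1 ± 1.30 CPM in knockdown cells and 8.50 ± 0.984 CPM in control cells and rose 1.90-fold (edgeR adjusted p = 1.44e-07). CXCL12 itself had at most 2 counts in any library. CCR10 fell on 4 to 13 counts per knockdown library against 32 to 40 per control library. It overlaps CNTNAP1 and genes without a symbol, of which the highest was at 29.8 CPM on average. ACKR4 did not pass (edgeR adjusted p = 0.505). The number higher was 2 without a count filter, without knockdown replicate 2 and without control replicate 2, and the number lower was 1 with limma on FPKM of at least 1. CCR3, the eotaxin receptor, was under the filter at 13, 6 and 10 counts in knockdown libraries, against 0, 1 and 1 in control libraries (edgeR adjusted p without the filter = 3.24e-04).

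Transcripts of the IL6 and LIF receptor chains were found in every library. The shared chain IL6ST was at 404 ± 3.50 CPM in knockdown cells and 312 ± 8.95 CPM in control cells (log2 change 0.37, SE 0.03; edgeR adjusted p = 5.86e-10). IL6R and LIFR, the chains that act with gp130 for IL6 and for LIF, did not pass (edgeR adjusted p = 0.0972 and 0.104). They were at 35.8 ± 1.08 and 275 ± 6.45 CPM in knockdown cells and 32.5 ± 1.98 and 260 ± 19.8 CPM in control cells. With edgeR, IL6R passed without control replicate 3 (adjusted p = 0.0340) and LIFR without control replicate 2 (0.0129). Of 12 tested genes of the family's cytokines and receptors, 2 rose, 4 fell and 6 had no call (median -0.01). This share called was below the 55.9% of all genes tested, whose median was 0.01. OSMR, the oncostatin M receptor chain that also pairs with gp130, fell 1.87-fold to 447 ± 7.32 CPM, against 836 ± 6.74 CPM in control cells (edgeR adjusted p = 9.03e-19), although it overlaps the abundant gene RICTOR. IL11, a cytokine of the same family, was at 2.23 ± 0.472 CPM in knockdown cells and 6.42 ± 0.576 CPM in control cells, and IL27RA fell 1.60-fold.

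Genes of the JAK and STAT3 pathway, through which IL6 and LIF signal, changed in both directions. Of 12 tested, 3 rose, 8 fell and 1 was without a call (median log2 change -0.72). The share called was 91.7%, against 55.9% of all genes tested. The gene without a call was STAT3 itself, at 260 ± 10.5 CPM in knockdown cells and 247 ± 12.3 CPM in control cells. Its log2 change was 0.08 (edgeR adjusted p = 0.104). The number of genes called higher was 4 with limma on FPKM of at least 1 and without control replicate 3. In several other settings, among them DESeq2, that number was 2. Whether STAT3 has a call may thus depend on the setting. JAK1, a kinase bound to gp130, rose 1.72-fold to 201 ± 1.49 CPM, against 117 ± 1.94 CPM in control cells. The feedback inhibitor SOCS3, a STAT3 target, was at 37.7 ± 0.731 CPM in knockdown cells and 73.4 ± 2.96 CPM in control cells (log2 change -0.96; edgeR adjusted p = 3.47e-14). SOCS2 fell 10.9-fold to 2.49 ± 0.246 CPM, against 27.3 ± 0.938 CPM in control cells, and the anti-apoptotic gene MCL1 fell 2.85-fold. The acute-phase genes, which IL6 induces in liver, were mostly undetected: 4 of 14 could be tested and all 4 of those fell. Among all genes tested, 27.9% were called lower. CFB, a complement factor, was at 22.3 ± 1.55 CPM in knockdown cells and 47.4 ± 5.31 CPM in control cells, and the fibrinogen genes FGA, FGB and FGG fell 2.57-fold, 2.21-fold and 3.07-fold, with control means of at most 12.1 CPM. With limma on log2(FPKM + 0.1) without a filter FGG (adjusted p = 0.0505) and FGA (0.0844) lost their calls, and 2 acute-phase genes were called lower in each limma setting. Without a filter, limma also called 1 acute-phase gene higher. CRP had 0 counts in the knockdown libraries and at most 3 in the control libraries.

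Of 20 tested genes of NF-kB signalling, 4 rose, 10 fell and 6 had no call (median log2 change -0.16). The 4 with the smallest p all fell. SOD2, a mitochondrial dismutase, and BIRC3, an inhibitor of apoptosis, fell 2.28-fold and 2.04-fold. NFKBIZ, a nuclear co-factor for IL6 transcription, fell 2.09-fold, and TNIP1, an inhibitor of the pathway, 1.50-fold. TNFAIP2 rose 1.39-fold (edgeR adjusted p = 6.42e-11). Of the subunit genes, RELA and NFKB1 did not pass (log2 change -0.01 and 0.04), and NFKB2, RELB and REL fell (-0.51, -0.53 and -0.22). For REL the groups overlapped (edgeR adjusted p = 0.0341). NFKBIA fell (-0.14, edgeR adjusted p = 0.0366) and TNFAIP3 did not pass (0.07). The number of NF-kB genes called lower was 8 with DESeq2, and 7 without control replicate 2 and in each limma setting. Of 11 genes of AP-1, EGR1 and C/EBP factors, 8 fell, 2 rose and 1 had no call (median -0.34); 1 was called higher with DESeq2 and without knockdown replicate 1, knockdown replicate 3 or control replicate 1. FOS was at 133 ± 2.05 CPM in knockdown cells and 284 ± 14.3 CPM in control cells (edgeR adjusted p = 2.36e-18), and JUN, JUNB and JUND fell 1.55-fold, 1.51-fold and 1.61-fold. Messenger RNAs of many chemokines carry AU-rich elements and are degraded by proteins that bind these. Of 7 such regulators 3 fell, 2 rose and 2 had no call (median -0.10). ZFP36, which encodes the decay factor tristetraprolin, fell 2.04-fold to 53.5 ± 5.25 CPM, against 109 ± 7.21 CPM in control cells, and its relatives ZFP36L1 and ZFP36L2 fell 1.23-fold and 1.55-fold. ELAVL1, which encodes the stabilising protein HuR, rose 1.22-fold. The other regulator that rose was KHSRP, which encodes a decay factor. The stability of the messenger RNAs was not measured. Over these 9 lists, 57 of the 77 genes tested were called (74.0%, against 55.9% of all genes), 15 higher and 42 lower, and the median log2 change was -0.22. No list was tested as a whole.

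**Figure D4:**
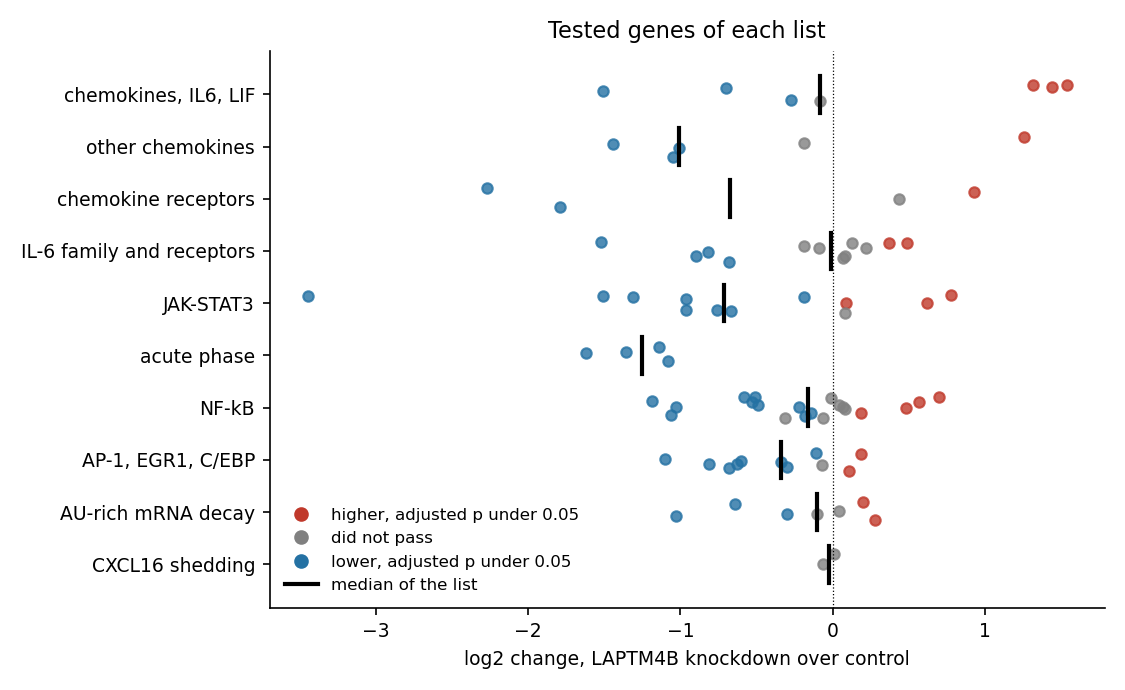
Log2 change, knockdown over control (horizontal axis), of every tested gene of the 10 named genes and the 9 related lists (rows), coloured by its edgeR call, with a black bar for the median of each list. The chemokine, IL6 and LIF row reaches to both sides, and the medians of the other chemokines (-1.01) and the acute-phase genes (-1.25) are the lowest.

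Leukocytes, fibroblasts and endothelium also make these ligands, and their markers were read in the same libraries. In bulk RNA, fewer cells of a type and less RNA per cell cannot be told apart. The 10 leukocyte markers summed to 2.13 to 2.87 CPM in knockdown libraries and 4.81 to 5.56 CPM in control libraries. Most of this difference lay in LAPTM5, at 0.729 ± 0.101 CPM in knockdown cells and 2.80 ± 0.346 CPM in control cells. LYZ was at 0 in all libraries, PTPRC had at most 3 counts, and 5 of the 10 had at most 3 counts in every library. The 8 fibroblast markers summed to 20.0 to 22.6 CPM in knockdown libraries and 12.3 to 15.1 CPM in control libraries, the most abundant being COL1A1, at 11.7 ± 1.12 CPM in knockdown cells and 9.69 ± 1.75 CPM in control cells, which did not pass. PDGFRB was at 3.13 ± 0.272 CPM in knockdown cells and 0.275 ± 0.127 CPM in control cells and FAP at 2.01 ± 0.333 CPM in knockdown cells and 0.263 ± 0.224 CPM in control cells, and they rose 10.8-fold and 7.87-fold (edgeR adjusted p = 1.52e-08 and 3.49e-06). The 6 endothelial markers summed to 60.4 to 66.9 CPM in knockdown libraries and 52.0 to 56.0 CPM in control libraries, nearly all of it ESAM. The defining marker CDH5 had at most 5 counts in any library, and PECAM1 had 3 counts in each knockdown library and 18 to 41 in control libraries. The part of these differences in the changes of CXCL2, CXCL3, CCL2, CXCL8 and IL6 was not tested.

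The genes whose profile over the 6 libraries was most like that of CXCL2, the most abundant of the genes that rose, were sought among 7270 genes of at least 5 FPKM, by the distance between log2 CPM profiles centred on each gene's mean. The nearest were CAP2, an actin-binding protein gene (distance 0.227), and the ciliary gene CPLANE1 (0.276), against a median distance of 1.62, and the next had no symbol in the table. CAP2 was at 44.7 ± 1.30 CPM in knockdown cells and 18.6 ± 2.43 CPM in control cells. The nearest to IL6, the most abundant of those that fell, were HORMAD1 (0.0993), the splicing kinase gene CLK1 (0.116) and BTN3A2 (0.123), against a median of 0.957. With 2 groups of 3 libraries, such likeness mostly means a change of the same size, and CLK1 had a log2 change of -0.69.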

How the data were processed

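Expression was measured in 6 libraries labelled HepG2, 3 with LAPTM4B knocked down and 3 controls, grouped by their titles. The authors deposited raw counts and FPKM per gene and library, with exonic lengths in bases as another quantity, per the file headers. The build is hg38, per the submitters' processing notes, and no aligner, counter, annotation or strand setting is named there. Recomputing FPKM from count, length and library total gave 100% of the deposited values within 0.0051.

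The main test was edgeR's two-sided quasi-likelihood F test (version 4.0.16, R 4.3.3) on counts with TMM factors, after filterByExpr had removed 18147 genes with few counts; p-values were adjusted by Benjamini-Hochberg over 16354 genes, with a threshold of 0.05. The SE is the log2 change divided by the square root of F. Genes and lists were chosen with earlier results of these data known. Named were the 10 genes, their receptors and, of each list, up to 4 tested genes with the smallest p. CAP2, CPLANE1, HORMAD1, CLK1 and BTN3A2 were named by distance. Further genes were named after their values were seen: CXCL6, PF4, PPBP, CXCL12, CRP, CCL22, CCL24, CCR3, FYCO1, RICTOR, HNF4A and single markers. So were CNTNAP1, KHSRP, STAT3, TNFAIP2, TNFAIP3, NFKBIA and the NF-kB subunit genes. The motifs were chosen knowing the sequences. Precision is set by 15204269 to 19987318 counts per library. No replicates were identical, and those of a group differed beyond counting noise (chi-square of 1.89 to 4.38 per gene). Alternatives used DESeq2 1.42.0 and limma 3.58.1; alignments used Biopython 1.88.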

Additional observations from a re-analysis of the deposited data

How the results depend on the processing

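CXCL2, CXCL3, CCL2, CXCL8 and IL6 kept their direction and their call, and LIF stayed without one, under every alternative that gave them a value: DESeq2, median-of-ratios factors, no count filter, limma on FPKM and leaving out each library. CXCL3 and CCL2 lie under the mean of 1 FPKM that 2 of the limma settings require and had no value there. The CXCL16 change lost its call with DESeq2 (-0.28) and with limma on log2(FPKM + 0.1) (-0.21), log2(FPKM + 1) (-0.18) and log2(FPKM + 0.1) without a filter (-0.21), and lay between -0.35 and -0.20 with 1 library left out; the cause was not tested. CCL20, not tested in the filtered fit, was at -2.21 without a filter at -1.41 with limma without a filter, where the call was lost, and between -3.30 and -1.86 in the 4 fits with 1 library left out that admitted it, of which those without knockdown replicate 1 or 2 lost the call. The replicate block moved the counts of calls to 4441 higher and 4408 lower, against 4584 and 4559, and changed no call among the 10 genes; same-numbered libraries did not deviate together (r from -0.05 to 0.02 across genes), and not every library correlated best with its own number. Limma on FPKM of at least 1 called 4496 higher and 2915 lower with a pseudocount of 0.1, and 4512 and 2925 with 1, so that 60.7% of calls were higher, against 50.1% with edgeR; without a filter limma called 4293 higher and 3142 lower (57.7% higher), and the cause was not tested. Of 2 genes without a call, ADAM10 turned to 0.00 with limma on FPKM and ADAM17 lay between -0.06 and 0.03 with 1 library left out, below 0 without control replicate 1. Depth limits what can be said of CXCL1 and CXCL5, with no count, and of CCL20, CCL2 and CXCL3, with few.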
